A study of Mus musculus with 11 samples.

Results

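Matricellular proteins are secreted proteins of the extracellular matrix that bind cell-surface receptors and matrix components, and that act mainly on cell behaviour rather than as load-bearing fibres. The 10 genes described here were Postn, Spp1, Tnc, Sparc, Thbs1, Thbs2, Thbs4, Ctgf and Spon2, which encode such proteins or close relatives, and Fn1, which encodes fibronectin. They were chosen by symbol in the deposited annotation, with the brightest probe set taken for each gene, and made up 10 of 21759 gene symbols on the array. Each of the 10 had 1 probe set, and all 10 were among the 14494 of 28350 probe sets that passed a minimum mean signal of 30 in at least 1 group.

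RNA was measured in the tibialis anterior (TA), a muscle of the front of the lower hind limb, of 11 male mice of the C57/B10 background, harvested at 14 weeks of age. The 3 C57 mice were wildtype and untreated. The 4 mdx mice carried a mutation in the dystrophin gene that prevents production of full-length dystrophin, the defect of Duchenne muscular dystrophy, and were untreated. The 4 treated mdx mice carried the same mutation and had been given Pip6e-PMO once, at 12 weeks, as an intravenous injection of 12.5 mg/kg (tail vein, sterile saline). Pip6e-PMO is an antisense oligonucleotide of the morpholino type joined to a cell-penetrating peptide, and it causes a Dmd exon to be skipped so that a shortened dystrophin can be made. No group of mdx mice given saline or peptide alone was analysed here. RNA came from cryosections of the mid-belly of whole muscle, so that fewer cells of a type and less RNA per cell cannot be told apart.

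Signals are given as log2 intensity, on which a difference of 1 is a doubling. Differences were tested with limma on all 14494 probe sets, and a gene was called where its p-value adjusted over all of them was below 0.05. The median intensity of the arrays lay between 27.5 and 28.6. Dmd itself differed by -0.55 ± 0.25 (SE, log2) between mdx and C57 (adjusted p = 0.198), and an mRNA signal over the whole gene does not check the point mutation or the exon skipping. All 7 skeletal muscle fibre markers passed the minimum signal, and 0 were called by limma in any of the comparisons, with 0 at an unadjusted p below 0.05.

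In injured muscle, fibronectin is laid down early as a provisional matrix on which cells migrate, and periostin and the tenascins are added where tissue is remodelled or carries load. Thrombospondins bind cell-surface receptors and matrix proteins and are abundant where muscle meets tendon. Connective tissue growth factor is a well-known transcriptional target of TGF-beta and of YAP/TAZ with TEAD factors. Osteopontin, the product of Spp1, is secreted by macrophages and regenerating myofibres and is a ligand of integrins and CD44.

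RefSeq promoter sequence (GRCm38.p6) was at hand for 6 of the 10 genes, at 9 annotated starts, and the 250 bases upstream of 5 of these starts are shown because their genes carry the results below. Postn and Spp1 were called in mdx muscle, and Tnc, Thbs2 and Thbs4 varied together between mice. Postn, Spp1 and Tnc have 2 annotated starts each. For Postn and Spp1 the start shown was picked because it holds TATAAA upstream, and for Tnc 1 of the 2 is shown. The other starts of Postn and Spp1, and the single start of Sparc, hold neither motif, while both starts of Tnc hold TATAAA. Capitals mark TATAAA or GGAATG on either strand.
Postn, chr3:54360857-54361106, + strand: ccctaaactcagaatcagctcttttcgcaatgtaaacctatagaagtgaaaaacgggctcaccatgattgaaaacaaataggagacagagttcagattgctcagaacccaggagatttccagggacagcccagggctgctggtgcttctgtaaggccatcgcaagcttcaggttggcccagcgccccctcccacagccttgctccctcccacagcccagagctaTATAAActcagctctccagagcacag
Spp1, chr5:104434861-104435110, + strand: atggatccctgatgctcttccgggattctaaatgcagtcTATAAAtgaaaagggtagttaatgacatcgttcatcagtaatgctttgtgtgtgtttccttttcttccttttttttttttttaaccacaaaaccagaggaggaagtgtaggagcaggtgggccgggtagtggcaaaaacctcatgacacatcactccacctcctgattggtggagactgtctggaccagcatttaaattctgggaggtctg
Tnc, chr4:64046937-64047186, - strand: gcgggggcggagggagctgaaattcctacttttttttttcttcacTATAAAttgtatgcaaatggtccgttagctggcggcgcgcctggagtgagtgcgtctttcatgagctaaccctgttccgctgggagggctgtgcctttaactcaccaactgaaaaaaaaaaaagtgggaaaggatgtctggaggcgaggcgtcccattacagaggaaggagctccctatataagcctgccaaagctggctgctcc
Thbs2, chr17:14694263-14694512, - strand: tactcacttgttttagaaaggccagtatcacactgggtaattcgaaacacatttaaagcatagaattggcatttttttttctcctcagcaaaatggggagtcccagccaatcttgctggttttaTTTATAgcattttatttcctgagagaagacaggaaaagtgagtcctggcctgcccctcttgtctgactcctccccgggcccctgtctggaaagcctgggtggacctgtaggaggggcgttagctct
Thbs4, chr13:92794819-92795068, - strand: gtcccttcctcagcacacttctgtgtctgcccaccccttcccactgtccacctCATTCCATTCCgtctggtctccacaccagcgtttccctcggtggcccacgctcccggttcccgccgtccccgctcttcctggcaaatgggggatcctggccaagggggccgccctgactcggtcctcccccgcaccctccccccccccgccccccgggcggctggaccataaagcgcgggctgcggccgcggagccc
The motif TATAAA, the core of a TATA box, lay at -26 from the start in Postn, at -211 in Spp1, at -205 in Tnc and, on the opposite strand, at -126 in Thbs2 (its first base in the strand shown, with the base before the start as -1), and it was present on either strand in 12.4% of the 32851 upstream windows of the same length in the table. The motif GGAATG, which TEAD factors bind, was present on the opposite strand in Thbs4, at -197 and -192 with 1 base shared by the copies, and in 12.6% of all windows. The AP-1 motif TGANTCA was in none of the 9 windows of these genes and in 6.75% of all windows. A match is a description of the letters only.

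In mdx muscle, 4 of the 10 genes rose over C57, and these were Spon2, Postn, Spp1 and Fn1. Spon2, with a mean signal of 26.9 in C57, was tested only through the groups in which it is high. Across all probe sets tested, 7.06% were called higher in this comparison. All 10 differences were above 0, although that of Ctgf changed sign under several alternatives and that of Thbs2 without C57 replicate 3, and 6 had an unadjusted p below 0.05, against 24.9% of all probe sets. The 10 differences ran from 0.01 to 3.42 (log2), with a median of 0.93, while the median over all probe sets tested was -0.01. All mdx mice lay above all C57 mice for 6 genes, namely Postn, Spp1, Tnc, Sparc, Fn1 and Spon2, against 13.1% of all probe sets.

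**Figure D1:**
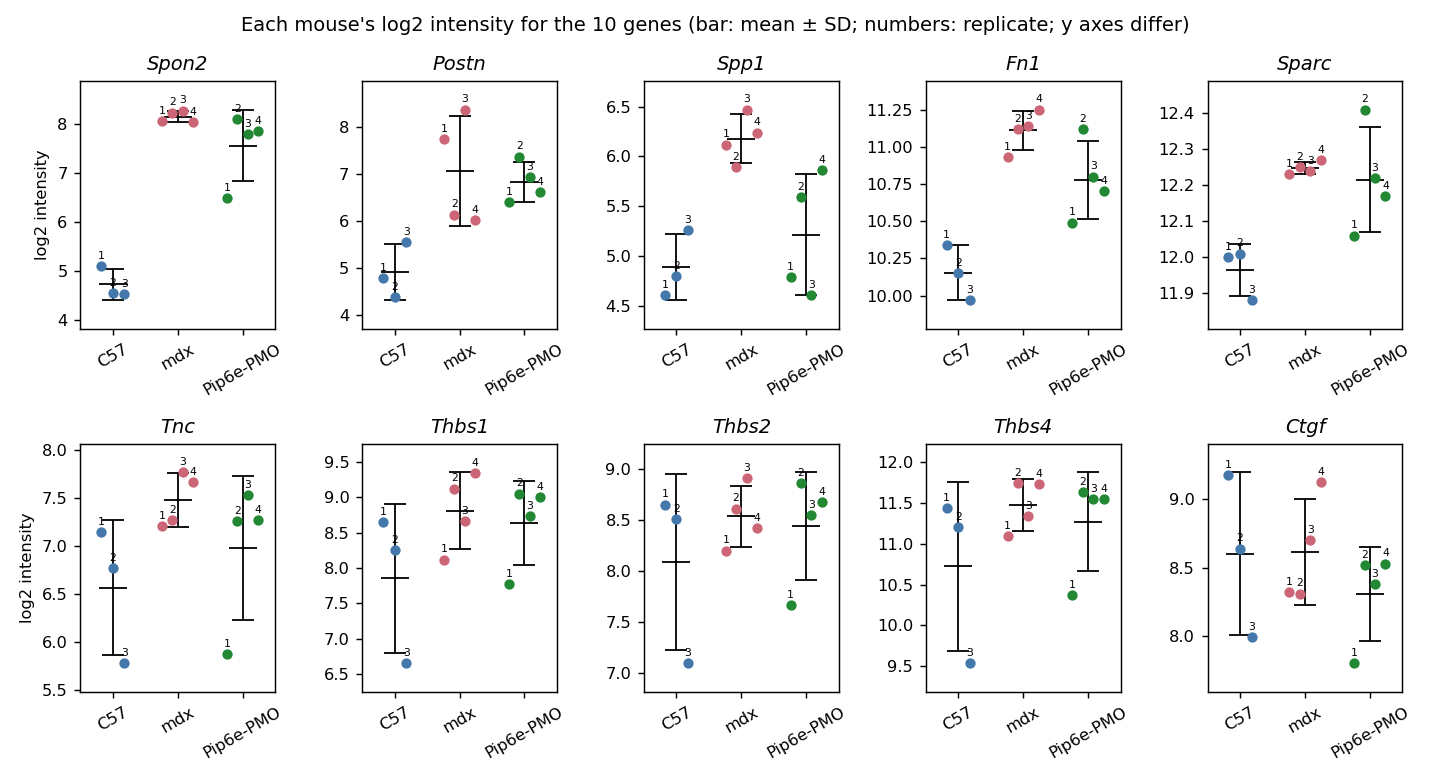
Log2 intensity of each mouse for the 10 genes, by group (C57, mdx, Pip6e-PMO treated mdx). Points are mice with their replicate number, and bars are the group mean ± SD. Spon2 lies between 4.53 and 5.10 in C57 and between 8.04 and 8.27 in mdx, and in the lower row C57 replicate 3 and treated replicate 1 are the lowest points of their groups.

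Fibronectin, a large glycoprotein that links collagen and other matrix to integrins, was bright in every mouse. Fn1 measured 10.34, 10.15 and 9.97 in the C57 mice, 10.93, 11.12, 11.14 and 11.25 in the mdx mice, and 10.49, 11.12, 10.80 and 10.70 in the treated mice. The mdx and C57 mice did not overlap, nor did the treated and C57 mice, while treated replicate 2 lay among the mdx mice. Fn1 rose by 0.96 ± 0.15 (SE, log2) in mdx, or 1.94-fold (adjusted p = 0.00138), and it stood 0.62 ± 0.15 above C57 in treated muscle (adjusted p = 0.0106). The latter call was lost without C57 replicate 3 (0.53, adjusted p = 0.0537) and by the methods' t-test on log2 signals (adjusted p = 0.0940). The treated mice differed from mdx by -0.33 ± 0.14 (adjusted p = 0.118), a difference that passed the threshold without treated replicate 2 (-0.45, adjusted p = 0.0184).

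Spon2 encodes spondin-2, also called mindin, a secreted matrix protein with a thrombospondin repeat that binds integrins and bacterial surface molecules. It measured 5.10, 4.55 and 4.53 in C57, 8.06, 8.23, 8.27 and 8.04 in mdx, and 6.48, 8.10, 7.80 and 7.86 in treated mice. The mdx mice were tightly grouped (SD 0.12, n = 4), and treated replicate 1 stood 1.32 below the next treated mouse. Its mean signal in C57 was 26.9, below the minimum of 30, so it was tested only through the mdx and treated groups, in which it is high. Spon2 rose by 3.42 ± 0.31 (adjusted p = 3.17e-05) in mdx and stood 2.83 ± 0.31 above C57 in treated mice (adjusted p = 0.000183). Taken against the minimum in place of the C57 mean, it was at least 9.47-fold higher in mdx and at least 6.29-fold higher in treated mice. The difference of -0.59 ± 0.29 between treated and mdx mice did not pass the test (adjusted p = 0.179).

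Postn encodes periostin, a secreted protein of fibroblast lineage cells that binds collagen, tenascin-C and integrins. It measured 4.79, 4.39 and 5.56 in C57, 7.74, 6.14, 8.37 and 6.03 in mdx, and 6.40, 7.37, 6.93 and 6.62 in treated mice. Every mdx and treated mouse lay above every C57 mouse. The mdx mice fell into a high pair, replicates 1 and 3, and a low pair, replicates 2 and 4, with an SD of 1.17 (n = 4), the widest of the 10 genes in that group. Postn rose by 2.16 ± 0.51 in mdx (4.46-fold, adjusted p = 0.0166) and stood 1.92 ± 0.51 above C57 in treated mice (3.78-fold, adjusted p = 0.0196). Both calls were lost without C57 replicate 1 (adjusted p = 0.0519 and 0.0508) or C57 replicate 2 (0.0843 and 0.0811), and by the methods' t-test on log2 signals the mdx difference had an adjusted p of 0.170. The treated mice differed from mdx by -0.24 ± 0.47 (adjusted p = 0.767), and by 0.19 without mdx replicate 3.

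Spp1 was the only one of the 10 genes called between treated and untreated mdx mice. It measured 4.61, 4.80 and 5.26 in C57, 6.12, 5.89, 6.47 and 6.24 in mdx, and 4.79, 5.59, 4.61 and 5.86 in treated mice. Treated replicates 1 and 3 lay within the C57 range, and replicates 2 and 4 lay just under the lowest mdx mouse. Spp1 rose by 1.29 ± 0.28 in mdx (2.45-fold, adjusted p = 0.0102) and fell by 0.97 ± 0.26 with treatment (1.96-fold, adjusted p = 0.0363). Across all probe sets, 3.88% were called lower in treated than in mdx mice, a share that ran from 0.642% without treated replicate 4 to 12.0% without treated replicate 2, and was 0.310% by the methods' t-test on log2 signals. Its difference from C57 in treated mice was 0.32 ± 0.28 (adjusted p = 0.409). The treatment call rested on a narrow margin. It was lost in 6 of the 11 fits that each left out a mouse, namely C57 replicate 2, mdx replicate 1, 3 or 4, or treated replicate 1 or 3, with an adjusted p up to 0.0991 and a difference between -1.18 and -0.77, and the methods' t-test on log2 signals gave an adjusted p of 0.156.

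Macrophage markers were higher in mdx and mixed with treatment. In mdx, 5 of 7 were called higher, beside 7.06% of all probe sets, among them Cd68 (2.12 ± 0.26, adjusted p = 0.000344) and Lyz2 (1.70 ± 0.19, adjusted p = 0.000157). Cd163 was below the minimum signal. Itgam, also called, passed the minimum only through the mdx and treated groups (mean signal 28.4 in C57). With treatment, Cd68 fell by 1.03 ± 0.24 (adjusted p = 0.0245), while Mrc1 rose by 0.49 ± 0.13 (adjusted p = 0.0377). The Cd68 call was lost in 5 of the 11 fits that left out a mouse (adjusted p up to 0.0717) and the Mrc1 call in 7 (up to 0.105). The summed intensity of the list ran from 910 to 1336 in C57, from 2433 to 3849 in mdx and from 2005 to 2562 in treated mice. Markers of regenerating fibres, another known source of osteopontin, were called higher in mdx for 6 of 6 genes, beside the same 7.06%. Myh3 passed the minimum only through the mdx and treated groups (mean signal 19.3 in C57). With treatment 1 of the 6, Myl4, fell by 0.88 ± 0.23 (adjusted p = 0.0356), beside 3.88% of all probe sets called lower. The Myl4 call was lost in 8 of the 11 fits that left out a mouse (adjusted p up to 0.102). The other 5 differed by values between -1.39 (Tmem8c, adjusted p = 0.0633) and -0.10 (Myh8, adjusted p = 0.646), and Myog by -1.20 (adjusted p = 0.0664). Their summed intensity ran from 1102 to 1633 in C57, from 3447 to 5772 in mdx and from 1739 to 3950 in treated mice. The part of these cells in the Spp1 signal was not tested.

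Sparc encodes osteonectin, a collagen-binding matricellular protein needed for normal collagen fibril formation. It measured 12.00, 12.01 and 11.88 in C57, 12.23, 12.25, 12.24 and 12.27 in mdx, and 12.06, 12.41, 12.22 and 12.17 in treated mice. The mdx mice lay within 0.04 of each other, the treated mice spanned 0.35, and both groups lay above every C57 mouse. The difference was nevertheless small, 0.28 ± 0.10 (1.22-fold), and did not pass the test (adjusted p = 0.0774). With treated replicate 2 left out it did (adjusted p = 0.0324), as it did by the methods' t-test on log2 signals (0.0229). All treated mice were above all C57 mice for 4 of the 10 genes, Postn, Sparc, Fn1 and Spon2, against 17.9% of all probe sets, and 3 of these, all but Sparc, were called higher, against 15.6%.

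**Figure D2:**
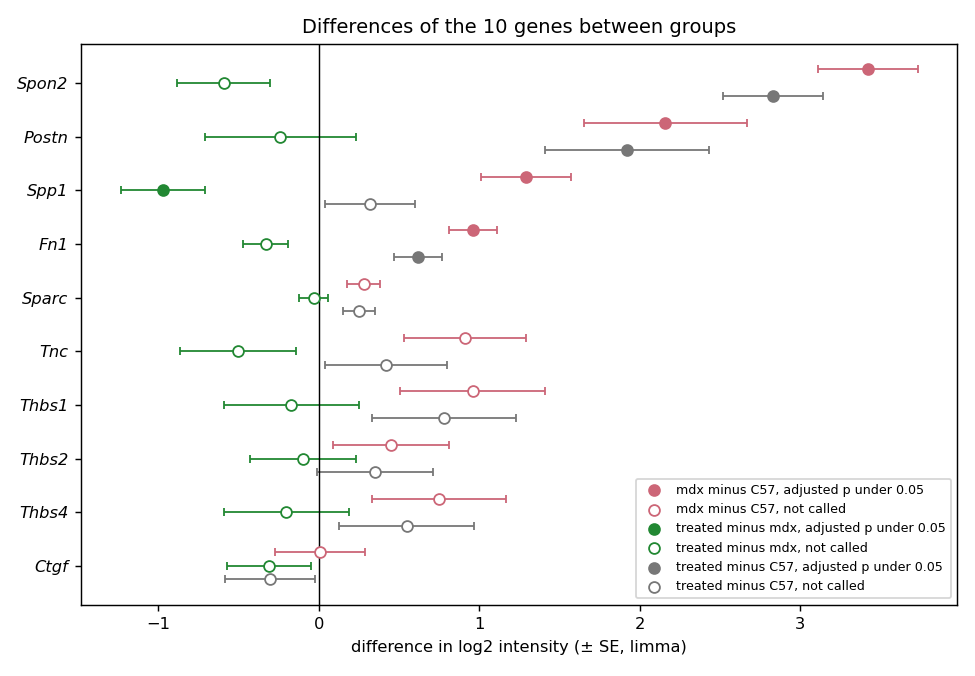
Differences in log2 intensity (x axis, ± SE) of the 10 genes (y axis) between mdx and C57, between treated and mdx, and between treated and C57 mice. Filled points passed an adjusted p of 0.05. The 4 filled mdx minus C57 points are Spon2, Postn, Spp1 and Fn1, and the single filled treated minus mdx point is Spp1 at -0.97. Both of these comparisons use the same mdx mice.

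Tenascin-C, a large hexameric glycoprotein of developing and injured tissue and of the myotendinous junction, was not called. Tnc measured 7.15, 6.77 and 5.78 in C57, 7.21, 7.27, 7.77 and 7.67 in mdx, and 5.87, 7.26, 7.53 and 7.27 in treated mice. The mdx mice all lay above the C57 mice, by 0.06 at the closest, and C57 replicate 3 and treated replicate 1 stood well below the others of their groups. The difference between mdx and C57 was 0.91 ± 0.38 (adjusted p = 0.160) and was 0.52 without C57 replicate 3.

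The thrombospondins are trimeric (Thbs1, Thbs2) or pentameric (Thbs4) calcium-binding glycoproteins. Thbs1 and Thbs2 inhibit vessel growth, and Thbs1 can activate latent TGF-beta, while Thbs4 is made by muscle and tendon and organises matrix at their junction. Thbs1 measured 8.65, 8.25 and 6.66 in C57, 8.12, 9.12, 8.66 and 9.34 in mdx, and 7.77, 9.05, 8.73 and 9.0 in treated mice. Thbs2 measured 8.65, 8.51 and 7.10 in C57, 8.20, 8.61, 8.91 and 8.42 in mdx, and 7.67, 8.86, 8.55 and 8.67 in treated mice. Thbs4 measured 11.43, 11.20 and 9.54 in C57, 11.09, 11.74, 11.34 and 11.73 in mdx, and 10.37, 11.63, 11.54 and 11.54 in treated mice. In all 3 genes the groups overlapped, and the lowest mouse was C57 replicate 3, followed by treated replicate 1. The differences between mdx and C57 were 0.96 ± 0.45 for Thbs1 (adjusted p = 0.217), 0.45 ± 0.36 for Thbs2 (0.504) and 0.75 ± 0.42 for Thbs4 (0.301). Without C57 replicate 3 they were 0.36, -0.05 and 0.16, so that these values rested on that mouse.

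Connective tissue growth factor, a CCN family protein, was not called in any comparison. Ctgf measured 9.18, 8.64 and 7.99 in C57, 8.32, 8.31, 8.70 and 9.13 in mdx, and 7.80, 8.52, 8.38 and 8.53 in treated mice. The 3 groups overlapped widely, and C57 spanned 1.19. The difference between mdx and C57 was 0.01 ± 0.28 (adjusted p = 0.989), and it ran from -0.29 to 0.30 as single mice were left out.

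Between treated and untreated mdx mice, the differences of the 10 genes ran from -0.97 (Spp1) to -0.03 (Sparc), with a median of -0.27, against 0.02 over all probe sets. The signs below 0 for Thbs1, Thbs2, Thbs4 and Sparc turned without treated replicate 1, to 0.12, 0.16, 0.10 and 0.02, and that for Postn turned as given above. All treated mice lay below all mdx mice for Spp1 alone among the 10 genes, against 6.69% of all probe sets. The differences between treated and mdx mice for Tnc, Thbs1, Thbs2, Thbs4 and Ctgf had standard errors from 0.26 to 0.42, so that changes of that size could not be resolved with 4 mice a group.

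Tnc, Thbs1, Thbs2, Thbs4 and Ctgf were low together in the same pair of mice, a pattern seen after their values were examined. For each of these 5 genes, C57 replicate 3 was the lowest C57 mouse by at least 0.5 and treated replicate 1 the lowest treated mouse by at least 0.5. This held for 5 of the 10 genes and for 0.338% of all probe sets tested (49 of 14494). Thbs4 was 1.78 below the mean of the other C57 mice in C57 replicate 3 and 1.20 below the mean of the other treated mice in treated replicate 1. For Thbs1 these gaps were 1.79 and 1.16, for Thbs2 1.48 and 1.02, for Tnc 1.18 and 1.48, and for Ctgf 0.92 and 0.68. Fn1 and Sparc, by contrast, were lowest in these mice by no more than 0.21, and Postn was highest of the C57 mice in C57 replicate 3.

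Tendon markers were low in the same pair. Of the 5 tendon markers, 4 met the same criterion, and the fifth, Scx, missed it with a gap of 0.30 in C57 replicate 3. Tnmd, which encodes the tendon membrane protein tenomodulin, measured 7.11, 7.29 and 5.58 in C57, 6.80, 7.56, 6.93 and 7.29 in mdx, and 6.27, 8.62, 8.27 and 8.27 in treated mice. Fmod, which encodes the tendon proteoglycan fibromodulin, measured 10.81 in C57 replicate 3 and 10.68 in treated replicate 1, and at least 11.01 in every other mouse. Comp, a pentameric thrombospondin of tendon and cartilage, measured 6.32 and 6.25 in the pair and at least 6.95 elsewhere. The summed intensity of the 5 markers was 2018 in C57 replicate 3 and 1880 in treated replicate 1, and ran from 2467 to 4622 in mdx, with a highest value of 4913 in C57 and 4918 in treated mice. All 5 passed the minimum signal, and 0 were called by limma in any comparison (2 had an unadjusted p below 0.05 in treated minus C57, and 0 in the others). With both mice left out together, an alternative chosen after the data were seen, the differences between mdx and C57 were 0.52 for Tnc, 0.36 for Thbs1, -0.05 for Thbs2, 0.16 for Thbs4 and -0.29 for Ctgf, and the same 4 genes, Spon2, Postn, Spp1 and Fn1, were called. The Spp1 call between treated and mdx mice was lost in that fit (-0.83, adjusted p = 0.102). Low values in this pair were not confined to tendon markers. The summed fibroblast markers were also lowest of their groups in these mice, at 4734 in C57 replicate 3 and 6618 in treated replicate 1. The same held for the summed macrophage markers (910 and 2005). In either list, 0 of the 7 markers met the criterion. From the lists that are not markers, Comp, Spock2 and Lox met it. How much tendon each section held, and its part in the signals of this pair, was not tested.

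**Figure D3:**
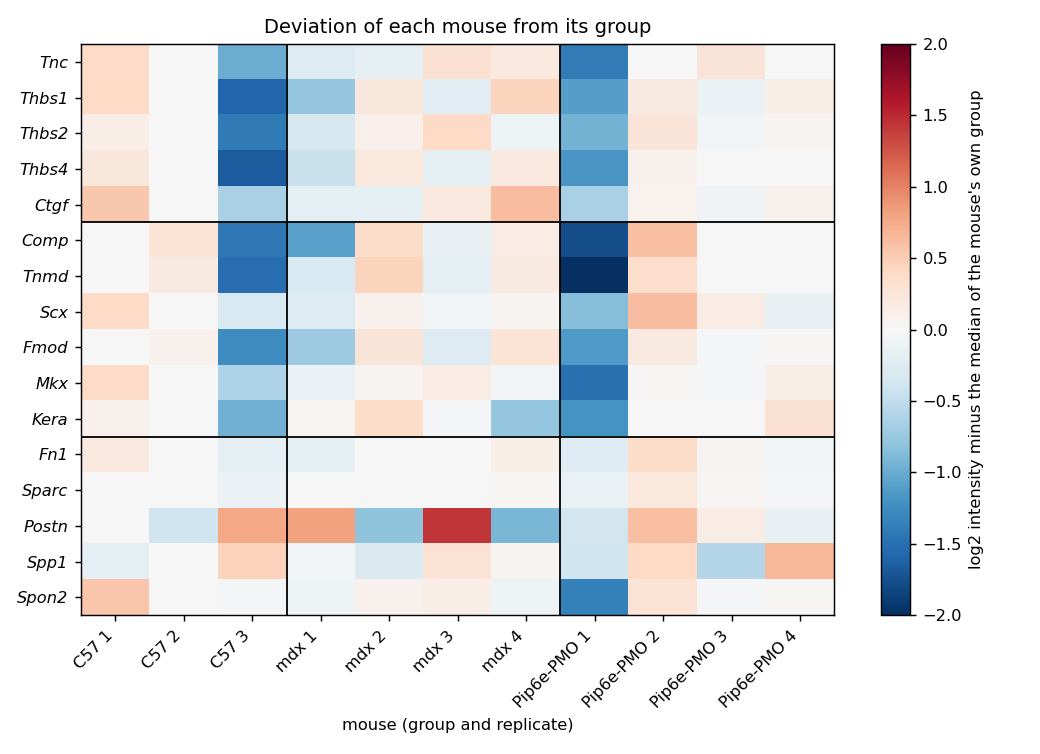
Log2 intensity of each mouse (columns, 11 mice) minus the median of its own group, for 16 genes (rows), from -2 (blue) to 2 (red). Upper rows are 5 of the 10 genes, middle rows Comp and the 5 tendon markers, lower rows the remaining 5 genes. C57 replicate 3 and Pip6e-PMO replicate 1 are blue through the upper and middle rows, and Postn is red in mdx replicates 1 and 3.

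Profiles of single genes over the 11 mice linked Thbs1, Thbs2 and Thbs4. The 3 nearest to Tnc and to Ctgf included none of Thbs1, Thbs2, Thbs4, Tnc and Ctgf. Whether those nearest genes were low in the same pair of mice was not examined. The profiles are the values in which the low pair was seen, so they are no separate test of it. As a measure of likeness, the root mean square difference of mean-centred log2 profiles was used, where 0 is identity. Thbs1 and Thbs4 were each other's nearest profile among all tested genes, 0.18 apart, while their own spreads were 0.73 and 0.64. The next nearest to Thbs4 were Pamr1 (0.22) and Thbs2 (0.25), and next to Thbs1 came Lox and Ptx4 (both 0.33). Tnc was nearest to Ptx4 (0.22), Snord118 (0.24) and Col12a1 (0.26), the last a collagen of tendon and muscle connective tissue. Thbs2 was nearest to Cpxm2 (0.19), Pamr1 and Thbs4 (both 0.25). Ctgf was nearest to Nuak2 (0.23), Snord53 and Hist2h2bb (both 0.24).

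The called genes had other neighbours. Fn1 was nearest to Tnfrsf1b (0.08), a TNF receptor, Col6a1 (0.08), a chain of the pericellular collagen VI, and Apbb1ip (0.10). Spp1 was nearest to Acp5 and Egr2 (both 0.33), and Acp5 encodes the acid phosphatase of osteoclasts and activated macrophages. Postn was nearest to Ankrd1 (0.48), Lum (0.57) and H19 (0.61). Spon2 was nearest to Npas2 (0.48), Pcbd1 and Mpeg1 (both 0.51), with an own spread of 1.47. Sparc, with a spread of 0.15, was nearest to Adar (0.05), Eda and Acly (both 0.07). The points of these profiles share the 3 groups, so the likeness is a description of the mice together.

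Of 22 further matricellular and adhesive glycoproteins, 19 were tested (Tnr, Spock1 and Spock3 were below the minimum signal), and 3 rose in mdx, beside 7.06% of all probe sets called higher. The median difference of the 19 was 0.37. Mgp, which encodes the mineralisation inhibitor matrix Gla protein, rose by 1.21 ± 0.19 (adjusted p = 0.00197), Thbs3, a pentameric thrombospondin, by 0.98 ± 0.18 (0.00381), and Fstl1, a secreted SPARC family protein, by 0.78 ± 0.15 (0.00529). Thbs3 measured 6.10, 6.10 and 6.09 in C57 and at least 6.98 in mdx, and unlike Thbs1, Thbs2 and Thbs4 it showed no gap in C57 replicate 3 (0.01). With treatment 1 gene of this list rose, Sparcl1, a SPARC relative named hevin, by 0.83 ± 0.16 (adjusted p = 0.0158), against 7.26% of all probe sets called higher (from 1.40% without treated replicate 4 to 16.4% without treated replicate 2). Sparcl1 measured between 8.72 and 9.44 in mdx and between 9.68 and 10.17 in treated mice, which did not overlap.

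Receptors for these proteins are integrins, CD44, CD36, CD47, syndecans and LRP1. Of 20 listed, 19 were tested (Itgb8 was below the minimum signal), and 6 rose in mdx with none lower, beside 7.06% of all probe sets called higher. Sdc2, a heparan sulfate proteoglycan, rose by 0.86 ± 0.15 (adjusted p = 0.00308) and Cd44, the hyaluronan and osteopontin receptor, by 0.83 ± 0.13 (0.00207). The fibronectin receptor subunits Itga5 and Itgb1 rose by 0.69 ± 0.17 (0.0210) and 0.63 ± 0.15 (0.0197), and Itgav and the endocytic receptor Lrp1 by 0.56 ± 0.15 (0.0356) and 0.46 ± 0.13 (0.0380). With treatment 4 receptors rose and none fell, beside 7.26% of all probe sets called higher, namely Cd36, a thrombospondin receptor (0.98 ± 0.24, adjusted p = 0.0291), Itga8, a fibronectin and osteopontin receptor subunit (0.79 ± 0.15, 0.0141), which was tested only through the treated group (mean signals 19.0 in C57, 21.3 in mdx and 37.3 in treated mice), Itgb1 (0.58 ± 0.14, 0.0284) and Itgav (0.49 ± 0.14, 0.0452). Itgav, the alpha chain shared by many of these integrins, and Itgb1 were called higher in both comparisons, which share the mdx mice.

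Of 12 genes of matrix assembly and cross-linking, 11 were tested (Plod2 was below the minimum signal), and 5 rose in mdx, beside the same 7.06%. Loxl1, a lysyl oxidase that cross-links elastin and collagen, rose by 1.05 ± 0.19 (adjusted p = 0.00410), Fap, a protease of activated fibroblasts, by 0.79 ± 0.22 (0.0380, with a mean signal of 23.2 in C57, so that it was tested only through the groups in which it is high), Serpinh1, the collagen chaperone, by 0.66 ± 0.16 (0.0197), Loxl3 by 0.61 ± 0.15 (0.0182) and Bmp1, the procollagen C-proteinase, by 0.49 ± 0.15 (0.0496). By limma 0 of the 11 were called with treatment (0 at an unadjusted p below 0.05), and without treated replicate 2 4 were called lower, Loxl1 (-0.58, adjusted p = 0.00698), Pcolce (-0.45, adjusted p = 0.0136), Serpinh1 (-0.40, adjusted p = 0.0123) and Bmp1 (-0.28, adjusted p = 0.0392). Of 15 genes of TGF-beta and YAP/TEAD signalling, all were tested and 5 rose in mdx, again beside 7.06%. Ankrd1, a YAP/TEAD target, rose by 2.80 ± 0.34 (6.97-fold, adjusted p = 0.000331), while Ctgf, another such target, differed by 0.01 and was not called. Tgfb1 rose by 0.88 ± 0.16 (0.00372), Tgfb2 by 0.64 ± 0.09 (0.000869), Wwtr1, which encodes TAZ, by 0.64 ± 0.09 (0.000955) and Tead4 by 0.48 ± 0.13 (0.0291). With treatment 3 of this list rose, beside 7.26%, Tgfbr1 by 0.58 ± 0.14 (0.0270), Wwtr1 by 0.53 ± 0.08 (0.00787) and Tead1 by 0.50 ± 0.13 (0.0352).

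Of the 19 calls in these 4 lists between mdx and C57, 10 held with each mouse left out in turn, those of Thbs3, Fstl1, Mgp, Cd44, Sdc2, Loxl1, Tgfb1, Tgfb2, Wwtr1 and Ankrd1. By the methods' t-test on log2 signals 10 of the 19 passed, not those of Fstl1 and Cd44. Of the 8 calls with treatment, 2 held with each mouse left out, those of Wwtr1 and of Itga8, whose mdx and C57 means lay below the minimum. By the methods' t-test 1 of the 8 passed, that of Wwtr1.

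**Figure D4:**
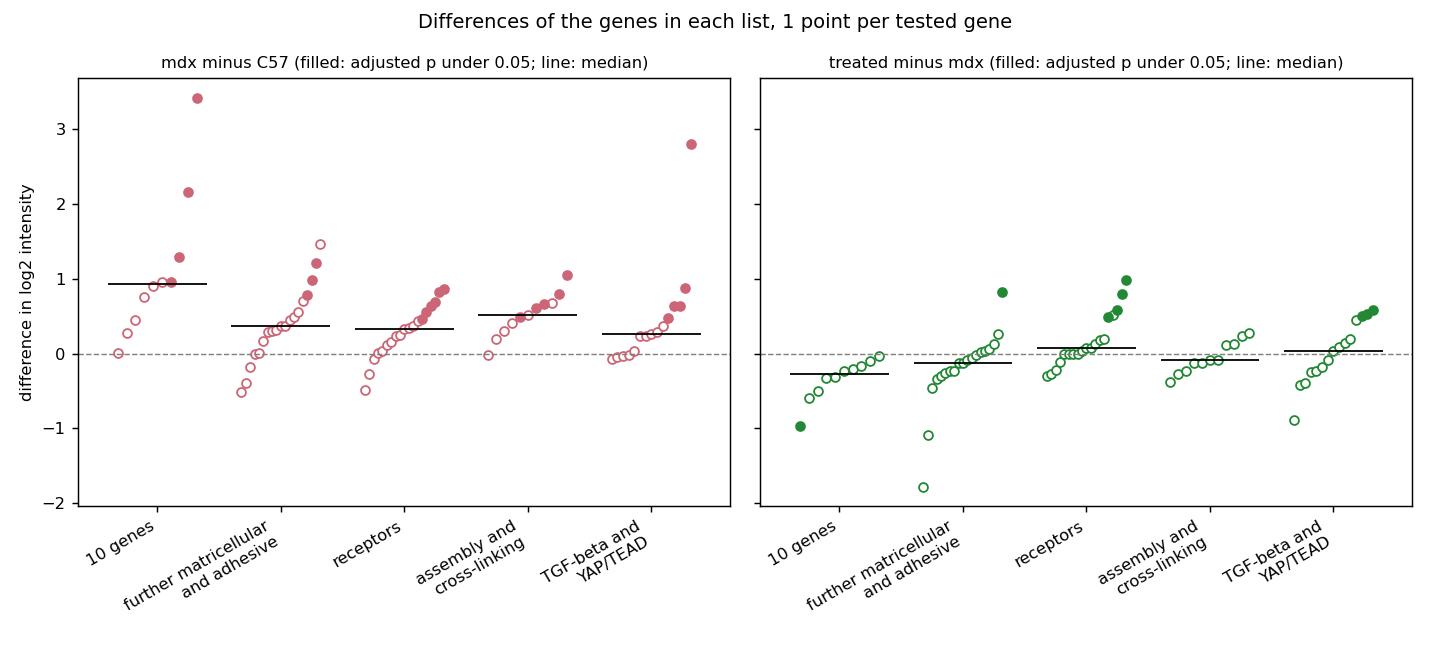
Differences in log2 intensity (y axis) between mdx and C57 (left) and between treated and mdx mice (right) for the 10 genes and 4 further lists, 1 point per tested gene. Filled points passed an adjusted p of 0.05 and lines are medians. The medians at left are 0.93 for the 10 genes and between 0.26 and 0.51 for the other lists.

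Fibroblasts make most of these proteins, and their markers were called higher in mdx for 3 of 7 genes, beside 7.06% of all probe sets. These were Lum (1.56 ± 0.29, adjusted p = 0.00419), Col3a1 (1.38 ± 0.23, 0.00233) and Ddr2 (0.42 ± 0.12, 0.0395). With treatment 1 of the 7, Ddr2, was called higher (0.43 ± 0.11, adjusted p = 0.0328), beside 7.26% of all probe sets. Each of the Ddr2 calls was lost in 7 of the 11 fits that left out a mouse. The summed intensity of the list ran from 4734 to 6532 in C57, from 6942 to 8466 in mdx and from 6618 to 11103 in treated mice. The summed muscle fibre markers ran from 51937 to 53977, from 52901 to 53880 and from 50162 to 53421 in the same order. The part of fibroblast number in the signals of Fn1, Postn and Spon2 was not tested.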

How the data were processed

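Total RNA of 11 TA muscles was hybridised to Affymetrix Mouse Gene ST array plates. The authors processed the arrays with Affymetrix Expression Console (RMA: background correction, quantile normalization across arrays and median polish over probes), and the deposited values are intensities on a linear scale, 1 per probe set. The software version and the genome build of the array annotation are not given in the sources used here. Groups came from the labels (C57, n = 3; mdx, n = 4; Pip6e-PMO treated mdx, n = 4; 1 mouse per array). No batch of arrays was given in the sources used here, and p-values measure the spread between these mice.

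Log2 of the deposited intensity was taken, and the 14494 of 28350 probe sets whose mean reached 30 in 1 group or more were fitted with limma 3.58.1 in R 4.3.3 (lmFit, eBayes, all groups sharing 1 spread, two-sided), with Benjamini-Hochberg adjustment over all of them. This minimum follows the study's methods, and the methods' t-test was an alternative. The fit was tested on simulated data. Quantile normalization makes levels relative to the other genes of an array, median polish can compress low signals, and probe sets of different genes were not compared in level. The number of arrays, 11, limits the precision.

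The 10 genes and the gene lists were chosen with earlier results of these data known. Named genes were all 10, list genes called in mdx minus C57 or treated minus mdx (largest first, up to 6 per list), receptors and assembly factors below the minimum, and the 3 nearest profiles of each gene. Marker lists cover muscle fibre, fibroblast, tendon, macrophage, regenerating fibre, endothelial, adipocyte and blood cells. A further marker list and 1 nearest profile are not reported here. Alternatives were the methods' t-test on log2 or linear signals, an unequal-variance test, 2-group fits, other priors, array weights, other filters and normalizations, other summaries per gene, a replicate block and leaving out each mouse.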

Additional observations from a re-analysis of the deposited data

Results flagged for a closer look

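In groups of 4 mice, a mouse was picked out where its gap to the next mouse took up a share of the group's range above Dixon's critical value, which chance gives in about 1 in 20 groups. Among 78 groups of the 10 genes, the genes called in the 4 further lists and the tendon markers, 10 were picked out. Genes of the other marker lists were not examined. The low values of treated replicate 1 belong to the pattern described above, so their flags are no separate test of it. Treated replicate 1 stood low for Tnc (gap 0.84 of the range, 5.87 against 7.26 to 7.53), Thbs4 (0.93, 10.37 against 11.54 to 11.63), Tnmd (0.85, 6.27 against 8.27 to 8.62), Fmod (0.85, 10.68 against 11.80 to 12.00) and Mkx (0.91, 4.77 against 6.23 to 6.38). Treated replicate 2 stood high for Bmp1 (0.83), and treated replicate 4 stood high for Tgfb2 (0.88) and Wwtr1 (0.87). Mdx replicate 2 stood high for Thbs3 (0.94, 7.33 against 6.98 to 7.0), and mdx replicate 4 stood low for Itgav (0.90, 7.24 against 7.70 to 7.75).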

How the results depend on the processing

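Of 747 values of single genes under alternatives, 679 kept their direction and side of the threshold, 32 lost the call, 11 gained it and 25 changed sign. The 4 genes called in mdx minus C57 became 0 with the unequal-variance test (5 had an unadjusted p below 0.05) and 3 to 5 with mice left out. The 1 gene called in treated minus mdx became 0 with either of the methods' t-tests, the unequal-variance test, only the 2 groups compared, no signal filter, a minimum of 100 (Spp1 was then untested) or the replicate block, 2 with array weights (Fn1 joined), and 0 to 2 with mice left out. The 3 called in treated minus C57 became 0 with the t-test on linear signals or the unequal-variance test, and 2 to 4 with mice left out. For treated minus mdx, limma with the 2 groups only, with no filter or with the block had 2 genes at an unadjusted p below 0.05, and the t-tests and the minimum of 100 had 1. The cause was not tested.

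The labels number the replicates but give no pairing of the mice, and none was assumed. Correlations of same-numbered mice, as deviations from their group means, ran from -0.297 to 0.153. Mice with different numbers were not compared in this way, so these values do not settle whether the numbers pair the mice. With the replicate block, 4, 0 and 3 of the 10 genes were called, and over all probe sets 723 were higher and 422 lower in mdx, against 1023 and 719 without it, and 339 higher and 159 lower with treatment, against 1052 and 563.

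Signs turned where differences were near 0. For Ctgf in mdx minus C57 the values were -0.03 with the t-test on linear signals and with median centring, -0.06 with array weights, -0.0045 with quantile normalization repeated, -0.11 with the block, and -0.02 or -0.16 without mdx replicate 3 or 4, and over all single mice left out they ran from -0.29 to 0.30. Without C57 replicate 3, Ctgf was -0.29 and Thbs2 -0.05 in mdx minus C57 (also without treated replicate 1 in addition), and in treated minus C57 Thbs2 was -0.14 and Thbs4 -0.04. Over single mice left out, the highest values were 0.73 for Thbs2 in mdx minus C57, and 0.63 for Thbs2 and 0.90 for Thbs4 in treated minus C57. In treated minus mdx, Sparc was 0.05 with quantile normalization repeated. In that comparison, leaving out mdx replicate 3 gave 0.19 for Postn and 0.03 for Thbs2, and leaving out mdx replicate 4 gave 0.0042 for Thbs1. Leaving out treated replicate 1 gave 0.02 for Sparc, 0.12 for Thbs1, 0.16 for Thbs2 and 0.10 for Thbs4 (0.09 without C57 replicate 3 as well). The lowest values over mice left out were -0.59 for Postn, -0.10 for Sparc, -0.40 for Thbs1, -0.24 for Thbs2 and -0.33 for Thbs4. Treated replicate 2 had the lowest array weight (0.256). Depth on arrays is signal over background: Spon2, Postn and Spp1 were near the minimum in C57, which limits how far their folds can be measured.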

Other observations

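The pair of mdx mice with the highest Postn, replicates 1 and 3, also had the highest signals of several genes of bone and cartilage, which were examined after their values were seen. The share of all probe sets that were highest in this pair was not counted. Whether these genes stand out from the others is therefore not known. Ibsp, which encodes the bone matrix protein bone sialoprotein, measured 6.40 and 7.04 in these mice and at most 4.02 in the other 9. Mmp13, a collagenase of cartilage and bone, measured 9.11 and 9.55 in them and at most 5.74 elsewhere. Tnn, which encodes tenascin-N, measured 5.77 and 6.67 against at most 4.81, and Bglap2, an osteocalcin gene, 5.77 and 7.43 against at most 5.32. Ibsp, Tnn and Bglap2 passed the minimum signal only through the mdx group, whose mean this same pair raises. Mmp13 passed it only through the mdx and treated groups. The same pair was also highest, by less, for Runx2 (6.38 and 6.74 against at most 6.28) and, below the minimum signal, for Sp7 (5.02 and 4.90 against at most 4.60) and Acan (4.37 and 5.10 against at most 4.04). The pair was not highest for Col2a1, which lay between 5.39 and 5.90 in all mice, or for Col10a1, between 4.44 and 4.90. Nor was it highest for the other genes examined, Alpl, Bglap, Acp5 and Ctsk and, below the minimum signal, Dmp1 and Phex. For Alpl and Bglap, mdx replicate 3 was the highest mouse (8.24 and 6.18). Mdx replicate 1 measured 7.53 and 5.27 for them, against up to 7.84 and 5.81 in C57. No difference in Ibsp was called. Ankrd1 and Postn had the same high pair among the mdx mice, with Ankrd1 at 8.75 and 8.41 against 7.36 and 7.43.

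Other cell type markers moved as follows. Of 5 adipocyte markers, 4 fell with treatment (Cfd by 1.94, Adipoq by 1.64, Plin1 by 1.56 and Cidec by 1.38), beside 3.88% of all probe sets called lower, but the treated and mdx mice overlapped for each, and each call was lost in 4 to 6 of the 11 fits that left out a mouse. Of 5 endothelial markers, 2 rose with treatment (Tek by 0.97 and Pecam1 by 0.78), beside 7.26% of all probe sets called higher, and each of these calls was lost in 5 of those 11 fits. Of 4 blood markers, 0 were called by limma in mdx minus C57 or treated minus mdx, with 0 at an unadjusted p below 0.05.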
